A study of Mus musculus with 6 samples.

Results

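The T cell receptor gene segments are the V, D, J and C genes from which T cells assemble the 2 chains of their antigen receptor. All genes of the count table that GENCODE M21 types as TR_V, TR_D, TR_J or TR_C genes were taken, which gave 226 of 49315 genes. They comprised 144 V genes (110 alpha, 22 beta, 7 gamma and 5 delta), 4 D genes, 70 J genes and 8 C genes. Pseudogenes of the loci were left out.

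Gene counts from bulk RNA-seq were available for regulatory T cells (Tregs, which express Foxp3, belong to the CD4+ lineage and restrain immune responses) of the skin and of the skin-draining lymph nodes (SDLNs), with 3 libraries from each. All animals carried the Foxp3-GFP reporter, in which cells expressing Foxp3 fluoresce green, and were 9 days old and untreated as far as the sources state. Cells of 3 mice were pooled into each sample, enriched on CD45 beads and sorted as DAPI- CD45+ CD4+ Foxp3-EGFP+ cells, so that each library mixes the receptors of several animals and the gate asked for no receptor chain. The groups follow the sample titles, since the tissue field of the labels names skin throughout, and libraries carry the letters of the column names. Where 3 values are given for a tissue, they are those of its libraries A, B and C in that order.

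A receptor chain gene is made by V(D)J recombination. In a developing T cell, 1 V, 1 J and, for beta and delta chains, a D segment are joined at random, and the joined exon is spliced to a C gene. Most CD4+ T cells, Tregs included, carry an alpha and a beta chain, and cells descended from the same T cell share the same joined genes. Gamma and delta chains mark a separate lineage that is prominent in mouse skin. A large pool of unrelated T cells therefore uses nearly every V gene, whereas a single clone uses 1 or a few.

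The skin libraries held 3748669 to 11741784 counts in total and the SDLN libraries 47243498 to 116158706. A gene at 3 counts or fewer was called at the floor, which corresponds to at most 0.8 counts-per-million (CPM, relative to the total of a library) in skin and 0.0635 CPM in SDLN. Skin Tregs A, with the smallest total, allowed the least. The defining Treg gene Foxp3 was at 0, 330 and 1 counts in skin and at 1788 or more in each SDLN library, and Cd4 was at 0, 1861 and 2 counts in skin. Of all 6 Treg markers, Ctla4 was called higher in skin (edgeR log2 fold change 1.15, adjusted p = 0.0447) and 0 were called higher in SDLN, against 1.04% and 45.3% of all genes tested. The log2 fold changes of Il2ra and Ikzf2 were 0.14 and 0.42 and those of Foxp3, Cd4 and Tnfrsf18 -3.23, -2.97 and -0.37. Summed levels of the 6 markers were 3209 to 5839 CPM in skin and 3392 to 4590 CPM in SDLN. All 10 genes of a myeloid marker list were called higher in skin, as were 1.04% of all genes tested, with summed levels of 31230 to 54380 CPM in skin against 418.2 to 762.9 CPM in SDLN. The part of these differences in the receptor results was not tested.

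The V gene ends below are shown because the most used V gene of each skin library differed. Each line holds the last 60 bases of the annotated coding part on the plus strand of GRCm38, from GENCODE M21, with the in-frame codon of the conserved cysteine before the joining point in capitals. Such a codon was found in the last 30 coding bases of all 144 V genes. Trav19 led the alpha V counts of skin Tregs A (chr14:53845768-53845827), Trav5-4 those of skin Tregs B (chr14:53704455-53704514) and Trav12-2 those of skin Tregs C (chr14:53616855-53616914). Trbv17 (chr6:41163497-41163556), Trbv20 (chr6:41188918-41188977) and Trbv3 (chr6:41048769-41048828) led the beta V counts of A, B and C. The end of Trav5-4 is shared letter for letter with Trav5d-4 and Trav5n-4, although no stretch of 150 bases is.
Trav19: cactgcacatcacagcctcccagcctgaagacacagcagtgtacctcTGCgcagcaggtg
Trav5-4: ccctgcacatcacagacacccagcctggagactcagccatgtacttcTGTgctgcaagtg
Trav12-2: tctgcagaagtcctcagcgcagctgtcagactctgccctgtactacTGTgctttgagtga
Trbv17: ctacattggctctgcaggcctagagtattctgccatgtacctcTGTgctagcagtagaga
Trbv20: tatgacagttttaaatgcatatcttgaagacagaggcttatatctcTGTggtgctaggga
Trbv3: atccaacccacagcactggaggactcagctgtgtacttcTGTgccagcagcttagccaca

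Constant genes were examined first, since every assembled chain ends in one whatever its V gene. Trac, the single alpha constant gene (ENSMUSG00000076928, chromosome 14, 54220521 to 54224206), stood at 217.4, 944.2 and 972.6 CPM in skin and 1246, 1204 and 1427 CPM in SDLN. Skin Tregs A lay far below B and C, and every SDLN library exceeded the highest skin library. On average this was 711.4 ± 428.1 against 1292 ± 118.9 CPM (SD, n = 3 each), and the log2 fold change of skin over SDLN was -0.72 (SE 0.74, edgeR adjusted p = 0.607).

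Trbc1 and Trbc2 are the 2 beta constant genes. Trbc1 (ENSMUSG00000076490, chromosome 6, 41538218 to 41539881) stood at 132.6, 340.8 and 382 CPM in skin, against 614.1, 555.1 and 629 CPM in SDLN. Trbc2 (ENSMUSG00000076498, chromosome 6, 41546730 to 41548352) stood at 548.2, 494.7 and 370.4 CPM in skin, against 1080, 893.2 and 1060 CPM in SDLN. Neither gene overlapped between the tissues, as held with SDLN higher for 53.6% and with skin higher for 2.39% of all genes tested. Trbc2 was lower in skin by edgeR (log2 fold change -1.16, SE 0.33, adjusted p = 0.0307), whereas Trbc1 did not pass (-0.96, SE 0.68, adjusted p = 0.385). The Trbc2 call was lost with limma voom (adjusted p = 0.294), with no filter on low counts (0.318) and with a block on the column letters, added after seeing the data (0.176). It was also lost on leaving out skin Tregs B (0.0623) or any of the SDLN libraries (0.152, 0.0729 and 0.061). Over the alternatives the adjusted p of Trbc2 ranged from 6.327e-13 to 0.318 and its log2 fold change from -1.45 to -1.05. In bulk samples, fewer cells of a type and less RNA per cell cannot be told apart.

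**Figure D1:**
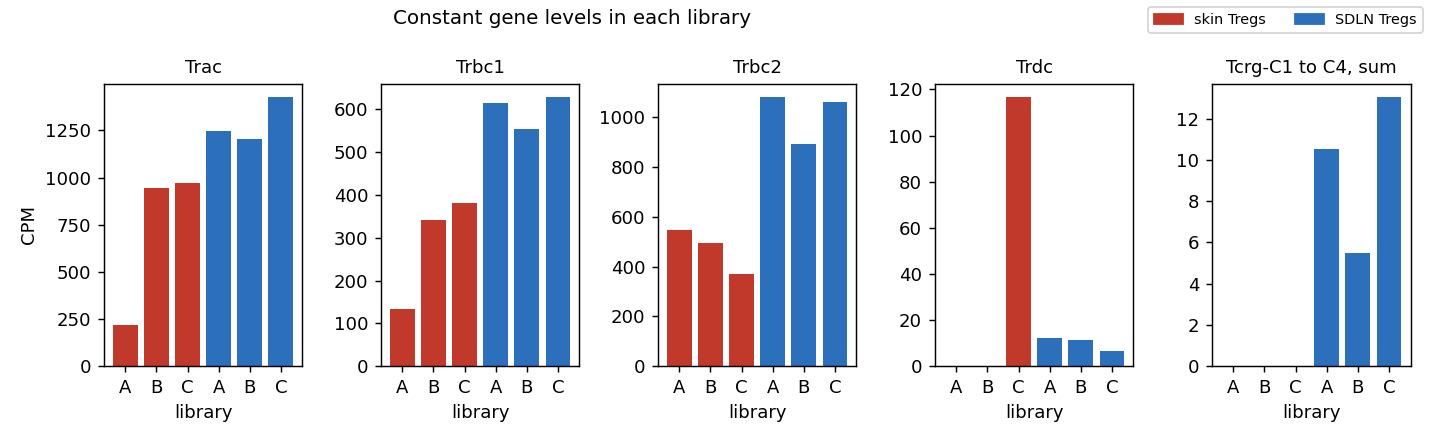
Level of each constant gene in each library, in CPM, with a separate vertical scale per gene. Red bars are skin Tregs and blue bars SDLN Tregs. Trac, Trbc1 and Trbc2 were present in every library and lower in each skin library, Trdc had 116.7 CPM in skin Tregs C and 0 in skin Tregs A and B, and the gamma constant genes summed to 0 in all skin libraries.

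The share of Trbc1 among beta constant counts was 19.5% in skin Tregs A (exact 95% interval 18 to 21.1), 40.8% in B (39.8 to 41.8) and 50.8% in C (49.6 to 52). In SDLN it was 36.2%, 38.3% and 37.3%, with intervals from 36 to 38.6 in all. The SDLN libraries lay close together and the skin libraries on both sides of them. Group means were 37.0 ± 16.0% in skin and 37.3 ± 1.05% in SDLN (exact two-sided permutation p = 1, n = 3 each). Intervals here cover counting error only, because reads copied from the same molecule were counted separately. The alpha chain took 24.2%, 53.1% and 52.8% of all constant gene counts in skin and 42.0% to 45.5% in SDLN, and the groups overlapped (exact permutation p = 1, n = 3 each). Per kilobase of exon, the level of Trac over that of Trbc1 and Trbc2 together was 0.240, 0.863 and 0.995 in skin and 0.560 to 0.644 in SDLN.

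A stretch of the 2 beta constant genes is shown because most of their coding differences lie in it. Their coding parts of 518 bases differ at 23 bases (95.6% identity), with 22 of these between coding bases 383 and 518, and their longest identical run of 259 bases is longer than a read of 150 bases. The untranslated parts of their exons were not compared. Reads that lie wholly in such a run cannot be assigned to 1 gene unless their mate can, and reads with no unique place were not counted. The lines hold coding bases 371 to 518 in GENCODE M21, on the plus strand of GRCm38 and joined across introns, from chr6:41538588-41539662 and chr6:41547100-41548178, with differing bases in capitals.
Trbc1: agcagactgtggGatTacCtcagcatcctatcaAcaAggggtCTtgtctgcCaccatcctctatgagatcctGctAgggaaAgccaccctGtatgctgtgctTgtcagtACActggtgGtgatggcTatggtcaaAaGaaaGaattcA
Trbc2: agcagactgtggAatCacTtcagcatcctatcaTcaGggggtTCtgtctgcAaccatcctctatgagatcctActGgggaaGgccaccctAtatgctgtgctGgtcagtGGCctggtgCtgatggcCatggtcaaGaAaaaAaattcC

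Fewer V genes were detected in skin Tregs than in SDLN Tregs. Genes were missing from skin beyond the receptor loci too, with 43.3% of all genes tested at the floor in all skin libraries. Of 110 alpha V genes, 2, 9 and 8 exceeded 3 counts in the skin libraries, against 71, 73 and 72 in the SDLN libraries (means 6.33 ± 3.79 and 72 ± 1, SD, n = 3 each). Of 22 beta V genes, 4, 11 and 5 were over 3 counts in skin and all 22 in every SDLN library (6.67 ± 3.79 against 22 ± 0). For both loci the highest skin library held fewer V genes than the lowest SDLN library. With 3 against 3 libraries a two-sided exact permutation test can give no p below 0.1, which was its value at each locus, so that it cannot pass 0.05.

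**Figure D2:**
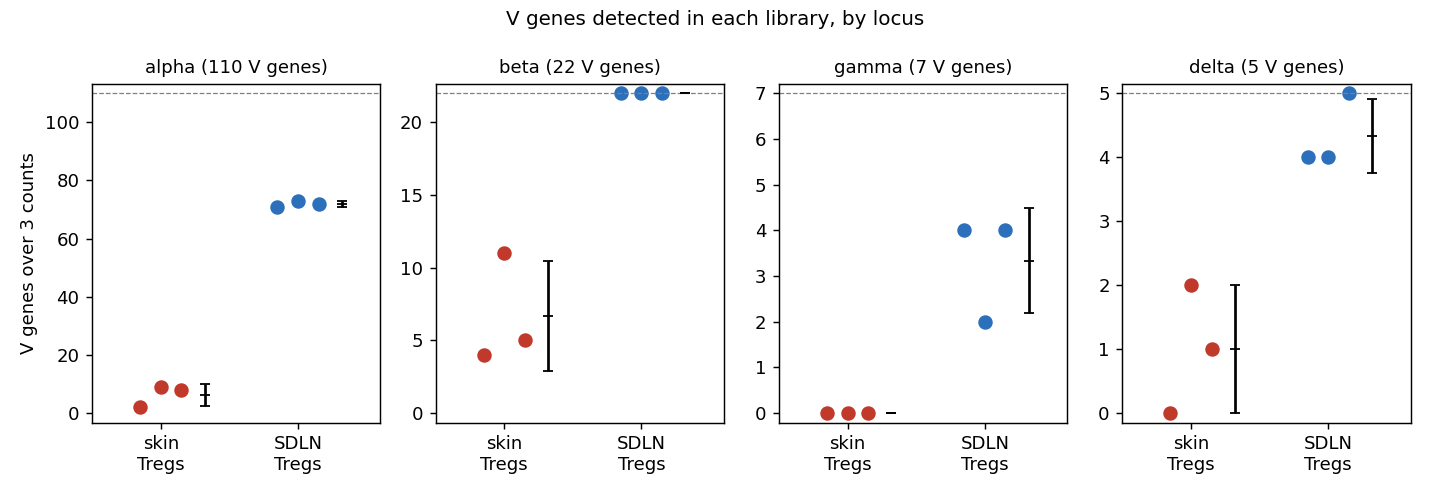
Number of V genes over 3 counts in each library, in separate panels for the alpha, beta, gamma and delta loci, each with its own vertical axis. Points are libraries (red for skin and blue for SDLN Tregs, each from A to C), the black bars are the mean ± SD and the dashed line is the number of V genes at that locus. All skin points lie below all SDLN points in each panel, with 2 to 9 alpha V genes in skin against 71 to 73 in SDLN.

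Numbers of V genes were then compared at equal numbers of V counts. The 3 skin libraries held 565, 4607 and 3663 alpha V counts. Drawn down to 565 counts, the SDLN libraries would be expected to keep 33.4 to 35.9 alpha V genes over 3 counts, where skin Tregs A had 2 (expectation of the hypergeometric distribution). At the depth of skin Tregs B they would keep 59.2 to 62.5, where it had 9, and at that of skin Tregs C 57.6 to 60.5, where it had 8. For beta, with 1448, 6157 and 2094 V counts in skin, 20.6 to 21.4 V genes would remain, against 4, 11 and 5. These expectations cover the sampling of reads only, since reads of the same molecule were counted separately and the number of molecules behind each library is unknown. The V counts per constant gene count were near each other in both tissues for beta (0.567, 0.628 and 0.308 in skin, 0.440 to 0.575 in SDLN, overlapping). For alpha they were higher in skin (0.693, 0.416 and 0.417 against 0.351 to 0.399, exact permutation p = 0.1, n = 3 each). Skin Tregs B and C lay just above the SDLN range, and skin Tregs A, with the fewest alpha V counts, far above it.

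Few V genes were at low counts in skin. Every alpha and beta V gene over 3 counts in the skin libraries had at least 82, 230 and 153 counts, and none of these 2 loci lay between 4 and 80. At the floor, Trav10 had 3 counts and Trbv13-3 1 count in skin Tregs C. In the SDLN libraries 16 to 27 alpha V genes lay in that range. The next shares cover only genes that averaged 3 to 100 CPM in SDLN. In skin Tregs A and B, 100% of such V genes with any count exceeded 80, and in C 81.2%. Of such detected genes outside the receptor loci, 60.1%, 67.7% and 53.4% did. No test was made of this difference, and levels were not matched within that range.

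Detection of V genes was set beside that of other genes at like level. Among the 18 V genes that averaged 30 to 100 CPM in SDLN, 22.2%, 55.6% and 38.9% exceeded 3 counts in the skin libraries, against 21%, 49.7% and 43% of the 3631 genes outside the receptor loci at that level. At 10 to 30 CPM (17 V genes) the shares were 11.8%, 52.9% and 23.5% against 12.3%, 27% and 23.9%. At 3 to 10 CPM (24 V genes) they were 0%, 8.33% and 12.5% against 12.5%, 23.4% and 20.5%. At 1 to 3 CPM (17 V genes) they were 0%, 5.88% and 0% against 9.44%, 18.3% and 16.4%. The share of V genes was thus near that of other genes at the highest of these levels and below it in every skin library at both lowest levels, as a description with no test.

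The evenness of V gene use was measured by the effective number of V genes, which is the number of equally used genes that would give the same Shannon entropy, over genes with more than 3 counts. For alpha it was 1.51, 8.37 and 6.71 in skin and 35, 36.4 and 32.5 in SDLN. For beta it was 3.73, 9.23 and 4.63 in skin and 16.5, 16.7 and 16.5 in SDLN. The groups did not overlap at either locus (exact permutation p = 0.1 each, n = 3 each). Pielou's index, which divides out the number of genes, overlapped for alpha (0.598, 0.967 and 0.915 in skin, 0.814 to 0.838 in SDLN, p = 1 by the exact permutation test) and was higher in skin for beta (0.927 to 0.952 against 0.907 to 0.911, exact permutation p = 0.1). Over all genes with at least 1 count, the beta means were 0.911 in skin and 0.909 in SDLN (exact permutation p = 1). The only beta V gene added by this was Trbv13-3 in skin Tregs C, at 1 count, so that the shift rests on that library. For alpha, skin Tregs B and C lay above every SDLN library on this index and skin Tregs A, where a single gene took most of the counts, below all of them.

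**Figure D3:**
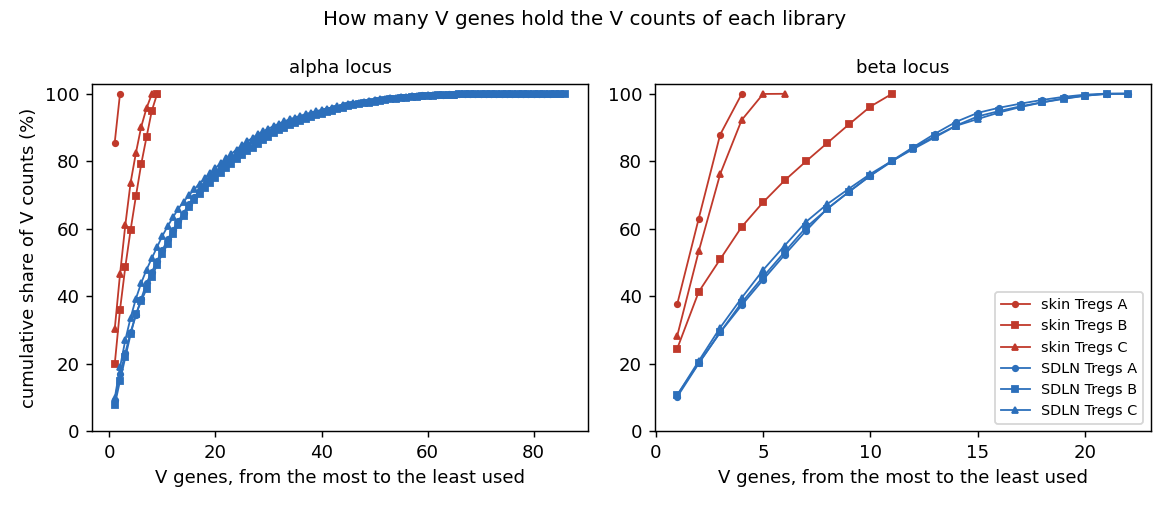
Cumulative share of V counts, in percent, against V genes ordered from the most to the least used, for the alpha locus (left) and the beta locus (right). Red lines are skin Tregs and blue lines SDLN Tregs, with circles, squares and triangles for libraries A, B and C. Skin Tregs A reached 100% with 2 alpha and 4 beta V genes, while the SDLN curves of each locus lie nearly on top of one another.

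The most used V gene differed between the skin libraries, while some genes were among the leaders of 2 of them (Trav4-4-dv10 and Trbv13-2 in A and C, Trav5-4 and Trbv16 in B and C). In skin Tregs A, Trav19 took 85.5% of alpha V counts (exact 95% interval 82.3 to 88.3) and Trav4-4-dv10 the other 14.5%. In skin Tregs B the leading alpha V genes were Trav5-4 at 19.8% (18.7 to 21), Trav3-3 at 16.2% and Trav7-5 at 12.7%. In skin Tregs C they were Trav12-2 at 30.2% (28.8 to 31.8), Trav4-4-dv10 at 16.3% and Trav5-4 at 14.6%. Trav19, the leader in A, was at 11% in B and at 0 counts in C.

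In SDLN Tregs the most used alpha V genes were Trav4-4-dv10, Trav3-3 and Trav14-2 in A, Trav14-3, Trav14-2 and Trav4-4-dv10 in B, and Trav4-4-dv10, Trav3-3 and Trav5-4 in C. None exceeded 9.76% of the alpha V counts of a library. Trav4-4-dv10 ran from 6.92% to 9.76%. Trav14-3, at 5.65% to 7.68% in SDLN, had 0 counts in all skin libraries, a depth at which up to 0.8 CPM would go unseen in skin Tregs A.

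Among beta V genes, Trbv17 took 37.7% (35.2 to 40.3) of skin Tregs A, followed by Trbv13-2 at 25.3% and Trbv31 at 24.9%. Trbv20 took 24.5% (23.5 to 25.6) of skin Tregs B, followed by Trbv16 at 16.8% and Trbv19 at 9.66%. Trbv3 took 28.3% (26.4 to 30.3) of skin Tregs C, followed by Trbv16 at 25% and Trbv13-2 at 22.9%. Trbv17 and Trbv20 were each at 0 counts in the other two skin libraries. In SDLN Tregs, Trbv17 stayed between 3.34% and 3.58% and Trbv20 between 5.31% and 7.37%, and the leaders were Trbv19, Trbv13-2 and Trbv16 in A and B and Trbv13-2, Trbv31 and Trbv16 in C, at 9.13% to 10.8%.

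**Figure D4:**
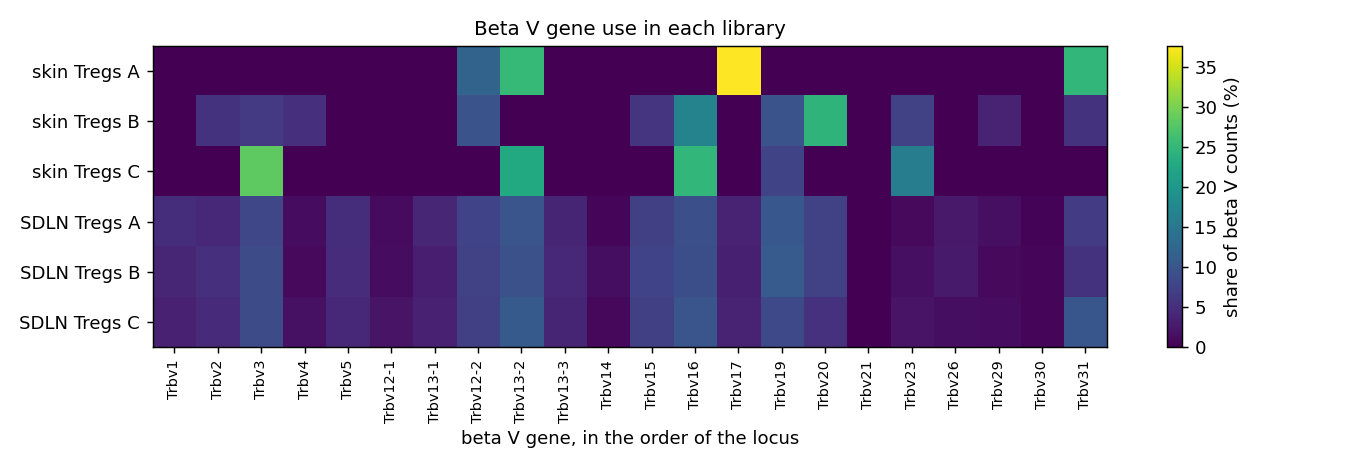
Share of beta V counts, in percent, taken by each of the 22 beta V genes (columns, in the order of the locus) in each library (rows). The brightest column of the skin rows is Trbv17, Trbv20 or Trbv3, 7 of the 13 genes seen in skin are in 2 skin rows, and the 3 SDLN rows look alike.

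The amount of V gene use that 2 libraries had in common was taken as the sum of the smaller share of each gene. It was 85% to 88.1% between SDLN libraries for alpha and 90.8% to 95.3% for beta. Between skin libraries it was 11% to 24.1% for alpha and 15% to 38.3% for beta, and between a skin and an SDLN library 10.4% to 37.5% and 25.6% to 59.7%. The ranges for 2 skin libraries and for a skin and an SDLN library overlapped, and both lay below the range for 2 SDLN libraries, as a description of these 6 libraries with no test.

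No V gene was over 3 counts in all skin libraries. For alpha, 11 were in 1 skin library and 4 in 2 of them. For beta, 6 were in 1 and 7 in 2. Trav4-4-dv10, Trav5-4, Trav19 and Trav14n-3 were the 4 alpha genes in 2 libraries. All 15 alpha and 13 beta V genes over 3 counts in any skin library were also over 3 counts in every SDLN library, and 0 receptor genes of any kind were over the floor in skin only. The 15 alpha V genes carried 55.4% of SDLN alpha V use on average and the 13 beta V genes 78.5%. In the order of SDLN use, the least used of the 15 ranked 36 of 110 and the least used of the 13 ranked 19 of 22. Trbv23 was among the latter, with 7.31% and 16% of beta V counts in skin Tregs B and C and 0.917% to 1.94% in SDLN.

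Across all genes, 45.3% of the 13572 tested were called higher in SDLN and 1.04% higher in skin by edgeR at an adjusted p under 0.05. Of the 226 receptor genes 141 entered that test, 80 were called higher in SDLN and 0 higher in skin, and 83 and 0 had an unadjusted p under 0.05. DESeq2 and limma voom also called 0 higher in skin. In all 3 skin libraries 78 of the 80 did not exceed the floor, which also held for 43.3% of all genes tested. The exceptions were Trbc2 and the J gene Traj52, which had 4 counts in skin Tregs B. Without regard to the test, 98 of the 141 had no overlap between the tissues with SDLN higher and 0 with skin higher, against the 53.6% and 2.39% of all genes above. Passing the filter through the SDLN libraries alone made such genes differ, so that the count describes absence in skin rather than a measured level. The calls fell on 41 of 56 tested alpha V genes, 8 of 21 beta V, 1 of 3 delta V, 1 of 1 gamma V, 19 of 38 alpha J, 6 of 13 beta J and 4 of 7 C genes. The tested V genes that exceeded 3 counts in a skin library were not called in either direction.

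The smallest adjusted p, 0.00322 in edgeR, was shared by 15 receptor genes, all at 0 counts in skin. The 5 most abundant were Trav14-1 at 15.1 ± 3.92 CPM in SDLN, Trav6-7-dv9 at 15.0 ± 3.56, Trav14d-3-dv8 at 14.02 ± 2.44, Trav4-3 at 13.3 ± 2.08 and Trbv12-1 at 11.6 ± 2.76 CPM (SD, n = 3 each). Beta V genes called higher in SDLN were Trbv1, Trbv5, Trbv12-1, Trbv13-1, Trbv13-3, Trbv14, Trbv26 and Trbv30, and none exceeded the floor in skin. Receptor genes together took 1514, 2941 and 2635 CPM in skin, against 4567, 4291 and 4689 CPM in SDLN (exact permutation p = 0.1, n = 3 each).

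The mouse alpha locus holds near-identical copies of a stretch of V genes, marked d and n in the symbols, and a read pair that matches several genes equally was not counted. Of the 110 alpha V genes, 39 shared no window of 150 bases with another receptor gene, 35 shared some and 36 shared every window. Among the 39, 92.3% were over 3 counts in all SDLN libraries. Among the 36, the share was 5.56%, and 27 exceeded the floor in no SDLN library. The 35 d copies took 6.68% to 7.2% of SDLN alpha V counts, the 28 n copies 7.15% to 9.08% and the 47 other genes 83.8% to 86.2%. Beta V genes shared no such window, and all 22 were seen in SDLN. Summed to Trav families, the number over 3 counts was 5 on average in skin and 21 in SDLN.

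**Figure D5:**
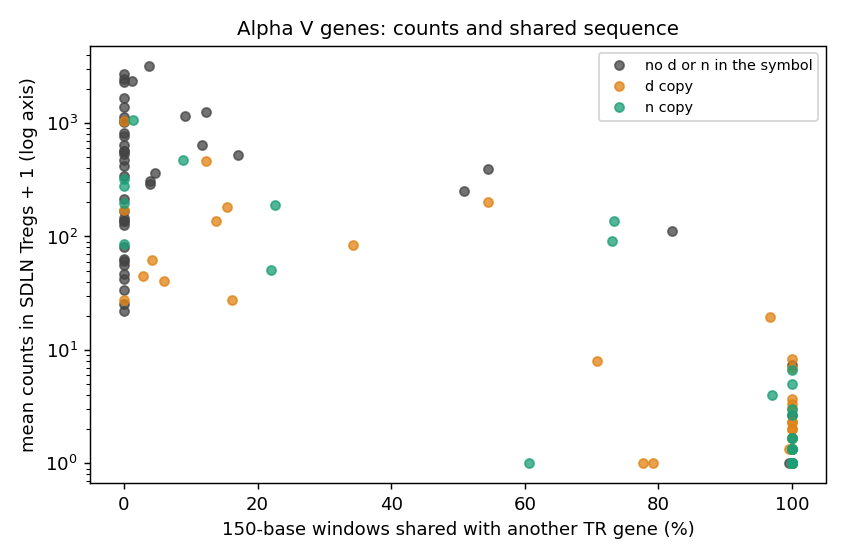
Mean counts of each alpha V gene in SDLN Tregs, plus 1 and on a log axis, against the percent of its 150-base windows that another receptor gene also holds. Each point is a gene, grey without and orange or green with d or n in its symbol. Genes with every window shared sit near the bottom right, and 27 of the 36 exceeded the floor in no SDLN library.

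Invariant natural killer T cells use a single alpha chain, joined from Trav11 and Traj18. Trav11 and its copy Trav11d had 0 counts in all 6 libraries, and 99.5% and 100% of their windows of 150 bases are shared between them, so that a count of 0 says nothing of their use. Their coding ends are shown for this reason, with the conserved cysteine codon in capitals (GRCm38 plus strand, chr14:53519800-53519859 and chr14:52824853-52824912), and are the same over 59 bases once shifted by 1 base.
Trav11: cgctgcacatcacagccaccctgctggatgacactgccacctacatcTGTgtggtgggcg
Trav11d: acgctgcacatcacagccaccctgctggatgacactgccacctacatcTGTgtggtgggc

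Traj18 was at 0, 67 and 0 counts in skin and at 440, 613 and 238 in SDLN, with neighbouring J genes at like counts in skin Tregs B (below). Mucosal-associated invariant T cells join Trav1 to Traj33. Trav1 had 0 counts in every skin library and 132, 5 and 42 in SDLN, whereas Traj33 had 0, 0 and 367 counts in skin and 297, 486 and 85 in SDLN. Traj33 was called in neither direction (log2 fold change 2.26, SE 2.55, edgeR adjusted p = 0.655), and its skin level came from skin Tregs C alone.

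J segments join between the V segment and the C gene and carry the second landmark of the joining region, a phenylalanine-glycine motif. All 51 alpha J genes were over 3 counts in every SDLN library, against 1, 15 and 7 in skin, and all 13 beta J genes against 2, 6 and 1 (exact permutation p = 0.1 each, n = 3 each). At the smallest library total, SDLN libraries would keep an expected 25.5, 35.3 and 20.8 alpha J genes, against 1, 9.67 and 6.03 in skin. Of 17 J genes at 3 to 10 CPM in SDLN, 5.88%, 58.8% and 23.5% exceeded 3 counts in skin. Genes outside the receptor loci gave 12.5%, 23.4% and 20.5%. At 1 to 3 CPM the shares were 0%, 35.3% and 11.8% against 9.44%, 18.3% and 16.4%. At 10 to 30 CPM they were 14.3%, 28.6% and 14.3% against 12.3%, 27% and 23.9%. J segments are 46 to 66 bases long, shorter than a read, and skin libraries held few J counts, with 5, 690 and 1296 for alpha and 255, 408 and 49 for beta. In skin Tregs C the most counted alpha J genes were Traj9 with 449, Traj33 with 367 and Traj20 with 273 counts. In skin Tregs B, 6 neighbours from Traj23 down to Traj18 had 126, 75, 77, 87, 83 and 67 counts, while Traj17 had 0. All 6 lie between positions 54196081 and 54200842 of chromosome 14. In SDLN Tregs B the same 6 ran from 290 to 719 counts and Traj17 had 467.

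For beta, skin Tregs A held Trbj2-2 with 139 and Trbj1-3 with 114 counts, skin Tregs B was led by Trbj2-5 with 170 and Trbj2-1 with 96, and skin Tregs C held Trbj2-1 with 47. The Trbj1 cluster lies before Trbc1 and the Trbj2 cluster before Trbc2. Trbj1 genes took 44.7% of beta J counts in skin Tregs A (exact 95% interval 38.5 to 51), 13% in B (9.88 to 16.6) and 0 of 49 counts in C, which allows up to 7.25%. In SDLN the share was 47.3%, 58.7% and 50.7%. No skin library reached the lowest SDLN share (exact permutation p = 0.1, n = 3 each). The share of Trbc1 went otherwise, being lowest in A and highest in C. The D genes Trbd1 and Trbd2 had 35 and 0 counts in skin Tregs A, 152 and 60 in B and 0 and 52 in C, against 754 to 1915 in SDLN.

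The leading J segments are shown with a motif in capitals that opens with TTTGG or TTCGG and goes on with any 4 bases, GG and any base, searched on the coding strand alone. The motif, which spells phenylalanine, glycine, any residue and glycine, was found in 55 of all 70 J genes (78.6%), and not in the annotated Traj20 and Traj33. The segments lie on the plus strand of GRCm38, at chr14:54196081-54196140 (Traj23), chr14:54199441-54199498 (Traj20), chr14:54209393-54209450 (Traj9), chr14:54185358-54185414 (Traj33), chr6:41542754-41542803 (Trbj2-1), chr6:41542957-41543007 (Trbj2-2) and chr6:41543453-41543501 (Trbj2-5).
Traj23: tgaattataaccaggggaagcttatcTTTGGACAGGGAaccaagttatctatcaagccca
Traj20: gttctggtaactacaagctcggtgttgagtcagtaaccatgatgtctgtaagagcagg
Traj9: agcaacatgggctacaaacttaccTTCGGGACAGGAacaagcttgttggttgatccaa
Traj33: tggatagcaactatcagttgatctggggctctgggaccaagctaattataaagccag
Trbj2-1: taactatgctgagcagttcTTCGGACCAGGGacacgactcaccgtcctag
Trbj2-2: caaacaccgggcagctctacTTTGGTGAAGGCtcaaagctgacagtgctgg
Trbj2-5: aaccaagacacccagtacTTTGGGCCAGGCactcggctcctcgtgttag

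Gamma chain genes had 0 counts throughout in skin Tregs. Tcrg-C1, Tcrg-C2 and Tcrg-C4, the constant genes, had 857, 250 and 113 counts in SDLN Tregs A, 263, 105 and 33 in B and 456, 106 and 50 in C. They entered the edgeR test through the SDLN libraries alone, as genes at the floor in skin do (43.3% of all genes tested), so that their calls as higher in SDLN describe absence in skin and no measured difference. Tcrg-C3 had 0, 0 and 4 counts there and was not tested. Among gamma V genes, Trgv2 had 81, 57 and 27 counts, Tcrg-V6 91, 19 and 9, Tcrg-V5, used by the dendritic T cells of mouse epidermis, 68, 3 and 5, and Tcrg-V1 16, 2 and 8 counts in SDLN. Tcrg-V3, Tcrg-V4 and Tcrg-V7 were at 0 in all libraries. SDLN Tregs thus had 4, 2 and 4 gamma V genes over 3 counts and skin Tregs 0 (exact permutation p = 0.1, n = 3 each). Drawn down to the total of the smallest library, the SDLN libraries would be expected to show 0.168 to 0.782 gamma V genes and 1.88 to 2.54 gamma constant genes over 3 counts, where only the sampling of reads is taken into account.

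Delta chain genes lie inside the alpha locus. Trdc, the delta constant gene (ENSMUSG00000104876, chromosome 14, 54142851 to 54148868), stood at 0, 0 and 116.7 CPM in skin, against 12.1, 11.5 and 6.71 CPM in SDLN. Its mean of 38.9 ± 67.4 CPM in skin rested on 1054 counts in skin Tregs C, and the groups overlapped (log2 fold change 2.29, SE 2.98, edgeR adjusted p = 0.719). Without skin Tregs C the direction turned, with 0 counts left in skin, so that no level was measured there. In skin Tregs C the other 10 genes of a gamma delta T cell list were at 0 counts, among them Tcrg-C1, Tcrg-C2, Tcrg-C4, Sox13, Cd163l1 and Blk. Summed over that list, levels were 0, 0 and 116.7 CPM in skin and 22.2 to 27.3 CPM in SDLN, where 5 of its 6 tested genes were called higher, against 45.3% of all genes tested. All 5 were at 0 counts in every skin library. Trdv5 overlaps the end of Trdc, and counts of overlapping genes are uncertain without a stated strand setting.

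Trdv1 and Trdv2-2, delta V genes, had 623 and 941 counts in skin Tregs B, where Trdc had 0. In skin Tregs A both were at 0, and in skin Tregs C Trdv1 had 5 counts. Their SDLN counts were 710, 891 and 551 for Trdv1 and 389, 492 and 306 for Trdv2-2, and neither was called (edgeR adjusted p = 0.881 and 0.665). Trdv4, the delta V gene of the dendritic epidermal T cells, had 0 counts in skin and 310, 881 and 92 in SDLN, and it too entered the test through SDLN alone. Delta V genes over 3 counts numbered 0, 2 and 1 in skin and 4, 4 and 5 in SDLN (exact permutation p = 0.1, n = 3 each). Delta D and J genes stayed at 11 counts or fewer in every library.

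The receptor works with the CD3 chains and a relay of kinases and adaptors, and 16 such genes were set beside it. Of the 12 that entered the test, 0 were called higher in skin and 2 higher in SDLN (edgeR), against 1.04% and 45.3% of all genes tested. These were Cd8a and Cd8b1, the coreceptor genes of CD8 T cells, at 0 counts in all skin libraries and 14.6 to 18.4 CPM together in SDLN. Over the 12 tested genes of this list the median log2 fold change was -1.52, against -2.21 over all genes tested and -7.45 over the tested receptor genes, most of which were at the floor in skin. The median of all genes takes in the 43.3% that exceeded 3 counts in no skin library. Among the 1623 genes over the floor in every library it was 0.28. The genes of this list among them, Cd3d, Cd3g, Cd247 and Lck, all lay below that, at -1.53, -0.77, -0.84 and -1.51, and none was called. Cd3g, a CD3 chain, was over the floor in every library with 3328, 7780 and 5483 counts in skin and 56149 to 140450 in SDLN (edgeR log2 fold change -0.77, SE 0.27, adjusted p = 0.0673). Cd3d did not pass either (-1.53, SE 0.53, adjusted p = 0.0602), and Cd3e had 0, 1757 and 2646 counts in skin. Rag1, Rag2, Dntt and Ptcra, which serve receptor assembly in the thymus, had at most 33 counts in any library, and Rag2 had 0 in all. Summed levels of the 16 genes were 1704, 4208 and 3006 CPM in skin and 7398 to 8895 CPM in SDLN.

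Markers of other lymphocytes were low. The 3 NK cell genes had 0 counts in skin and 1.02 to 1.8 CPM in SDLN, and the 4 B cell genes summed to 0, 0 and 2.66 CPM in skin and 54.9 to 89.8 CPM in SDLN. In both tissues these levels were below the sum of the beta constant genes, which was 680.8 to 835.6 CPM in skin and 1448 to 1694 CPM in SDLN. The myeloid genes exceeded the receptor genes in every skin library.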

How the data were processed

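The authors trimmed reads with Trimmomatic 0.36, mapped them to GRCm38 with STAR 2.5.2b and counted uniquely assigned exon reads with featureCounts (Subread 1.5.2). The deposited values are raw counts per gene. Annotation release, strand setting and duplicate handling were not given in the sources used here, nor were molecular identifiers. GENCODE M21 gave names, types, positions and sequences (49056 of 49315 genes named). No 2 libraries were identical. Labels number samples while columns carry letters, so columns were matched to groups only. Nothing says that the 3 samples of a group came from separate litters, so p-values measure the spread between these samples.

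Counts were tested with edgeR 4.0.16 (R 4.3.3, quasi-likelihood F test, robust, filterByExpr, TMM, tissue only) over all genes with Benjamini-Hochberg adjustment at 0.05. SEs come from the F statistic. Numbers, shares and evenness were compared with exact permutation tests (Python 3.11.15, scipy 1.17.1). Expected numbers at lower depth come from the hypergeometric distribution. Genes whose symbols join Trav and dv were counted as alpha. The edgeR fit was tested on simulated counts, and the measures of number and evenness on small made-up vectors with known answers. The members and lists were chosen with earlier results of these data known. A gene of the gamma delta T cell list is not reported here and was left out of that list. Named are all C genes, the 3 leading V genes of each locus and library, genes over 3 counts in all skin libraries, all calls in the rarer direction and 5 in the other, and segments of invariant or innate-like T cells; other V and J genes were named after their values were seen. Alternatives were DESeq2 size factors, TMMwsp or library size alone, DESeq2 1.42.0, limma 3.58.1 voom, other filters and count thresholds, thinning, summing of gene families leaving out each library and, added after seeing the data, a block on the column letters.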

Additional observations from a re-analysis of the deposited data

How the results depend on the processing

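Letters name the columns and numbers the samples in the labels, with no key between them, and nothing says that a letter marks the same mice. The deviations of same-lettered libraries from their group means were barely correlated (correlations across the 13572 tested genes, which are not independent, of 0.0199, -0.021 and 0.0753). Across the 1623 genes over the floor in every library they were 0.0415, -0.0158 and 0.175. Pairs of unlike letters ran from -0.171 to 0.154 there. A replicate block on the letters, chosen after seeing the data, called 80 receptor genes, all higher in SDLN, and 3 constant genes, with Trbc2 at -1.16 (edgeR adjusted p = 0.176) and Trdc, at 0 counts in 2 of the 3 skin libraries, at -7.60 on the log2 scale. The numbers of V genes and their effective numbers kept their direction in all 58 alternatives, and 0 receptor genes were called higher in skin in any of 14. Since the tissues did not overlap on these measures, leaving out a library could not turn the direction. Nor could any setting for gamma V genes, which had 0 counts in skin. The 80 genes called higher in SDLN Tregs were 1 when each library had to hold at least 10 counts, where 3 could be tested, and 60 to 107 on leaving out single libraries. The 4 constant genes called were 2 with limma voom and quality weights, 1 with the filter at 10 counts and 2 to 5 on leaving out single libraries, with 2 without SDLN Tregs A or C. Trdc, at 2.29 on the log2 scale, was at -1.47 with limma voom and at -12.01 without skin Tregs C, where skin held 0 counts and the value is no measured fold. The mean Pielou index of alpha V genes differed by -0.00176 (skin minus SDLN) and by 0.0119 with all genes of at least 1 count, a setting that took that of beta V genes from 0.0343 to 0.0026. The mean share of Trbc1, -0.261 percentage points in skin relative to SDLN, was 8.51 without skin Tregs A and 0.267 without SDLN Tregs B. Beyond smaller samples or fewer genes tested, the cause of these changes was not tested. TMMwsp moved the median log2 fold change of all genes from -2.21 to -2.33. With the common dispersion of 2.04, absence from the list of calls says little, and skin Tregs A rests on few counts, with 565 for alpha V and 5 for alpha J genes.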

Other observations

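Pseudogenes of the receptor loci, which cannot give a working chain, were not part of the comparisons. The 34 V pseudogenes had 0 counts in every skin library and 827, 838 and 411 in the SDLN libraries A, B and C. Of the 10 J pseudogenes, Traj8 had 300 counts in skin Tregs C, beside 449 of its neighbour Traj9, and Trbj2-6 had 166 in skin Tregs B, beside 170 of its neighbour Trbj2-5. All other J pseudogenes were at 0 in skin, and the 10 together had 1787, 1759 and 695 counts in those of SDLN.

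J counts per constant gene count varied more than V counts did. For alpha they were 0.00614, 0.0622 and 0.147 in the skin libraries, against 0.0572, 0.113 and 0.0426 in SDLN, and the groups overlapped. In SDLN Tregs B the ratio was higher than in A and C for alpha and also for beta, at 0.11 against 0.0735 in each of the other two.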
